A study of Homo sapiens and Mus musculus with 13 samples.

Results

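R-loops are structures in which an RNA strand pairs with the DNA template and displaces the other DNA strand. They form mostly behind RNA polymerase, so the RNA in the hybrid normally has the strand and the direction of the transcript, and its position follows what a cell transcribes. The regions described here are 3T3 fibroblast R-loops with support from 2 assays and no counterpart in the peak list of mouse embryonic stem cells. They are peaks of 3T3 DRIP-seq that were touched by at least 1 bp of a 3T3 DRIPc-seq peak, with strand ignored, and by no E14 DRIP-seq peak. On chromosomes 1 to 19 this rule left 4842 of 35219 3T3 DRIP peaks, or 13.7%, called E14-absent peaks below. They were compared mainly with the 11262 shared peaks, which are 3T3 DRIP peaks touched by both a DRIPc peak and an E14 peak.

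3T3 is an embryonic fibroblast line of the mouse, and E14 is a line of embryonic stem cells from the same species. In DRIP-seq, restriction fragments that hold RNA:DNA hybrids are recovered with an antibody and their DNA is sequenced without strand, while DRIPc-seq reads the RNA of the hybrids and therefore gives each peak a strand. DNA for all 3 libraries was cut with the enzymes HindIII, EcoRI, BsrGI, XbaI and SspI, so a DRIP peak can be no finer than the fragments these enzymes leave. Each of the 3 lists came from 1 sample, 3T3 DRIP-seq and 3T3 DRIPc-seq on the fibroblast side and E14 DRIP-seq on the stem cell side. The labels name no RNase treatment for any of them, but the name of the 3T3 DRIPc-seq list mentions RNase A, and whether that library was treated is not known.

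On chromosomes 1 to 19 the 3T3 DRIP list covered 121.0 Mb in 35219 peaks, the 3T3 DRIPc list 84.2 Mb in 39004 peaks and the E14 DRIP list 126.7 Mb in 52246 peaks. The lists hold positions without read counts, so the depth of each library is unknown, and a region absent from the E14 list is one that was not called there. A difference between fibroblasts and stem cells cannot be told apart from one between single libraries, and no p-value is given below. Intervals in parentheses are exact 95% Clopper-Pearson intervals, which reflect the number of peaks counted and not the variation between cultures. They treat each peak as independent. Neighbouring peaks can share a strand or a nearest E14 peak, so the intervals can be too narrow. Positions are on mm9 and counted from 1. No mm9 annotation or genome was used, so regions are given without gene names or sequence, and fibroblast or stem cell marker genes were not looked up.

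Both conditions of the rule followed peak length, in opposite directions. Of all 3T3 DRIP peaks, 45.7% were touched by DRIPc and 38.4% by no E14 peak. Among peaks touched by DRIPc, 55.1% (52.9 to 57.3%) of those under 1 kb had no E14 peak, against 17.7% (16.7 to 18.7%) of those of 5 kb or more. Among peaks without an E14 peak, 22.0% (20.9 to 23.2%) of those under 1 kb were touched by DRIPc, against 72.1% (69.7 to 74.5%) of those of 5 kb or more. Put together, the share varied little with length. E14-absent peaks were 12.9% of all 3T3 DRIP peaks under 1 kb, 13.8% of those from 1 to 2 kb, 14.6% of those from 2 to 5 kb and 13.4% of those of 5 kb or more. Since a long peak is more easily touched by any other list, the class Noisy_BroadPeak, both-strand and RNA cover comparisons with shared peaks are also given by length; the other comparisons with shared peaks are not adjusted for it.

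E14-absent peaks were of middle length. Their median was 2258 bp, with quartiles at 1100 and 4410 bp, against a median of 4113 bp and quartiles at 2197 and 7302 bp for shared peaks. 3T3 DRIP peaks with an E14 peak and no DRIPc peak had a median of 1935 bp, and those with neither had a median of 1123 bp. E14-absent peaks ran from 101 to 76952 bp and summed to 16.4 Mb, against 61.8 Mb in shared peaks. The 888 longest E14-absent peaks, 18.3% of them, made up 50% of their base pairs. Peaks of 10 kb or more numbered 266 (5.49%) among E14-absent peaks and 1525 (13.5%) among shared peaks. They numbered 244 (2.34%) among peaks with E14 and no DRIPc, and 43 (0.496%) among peaks with neither.

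**Figure D1:**
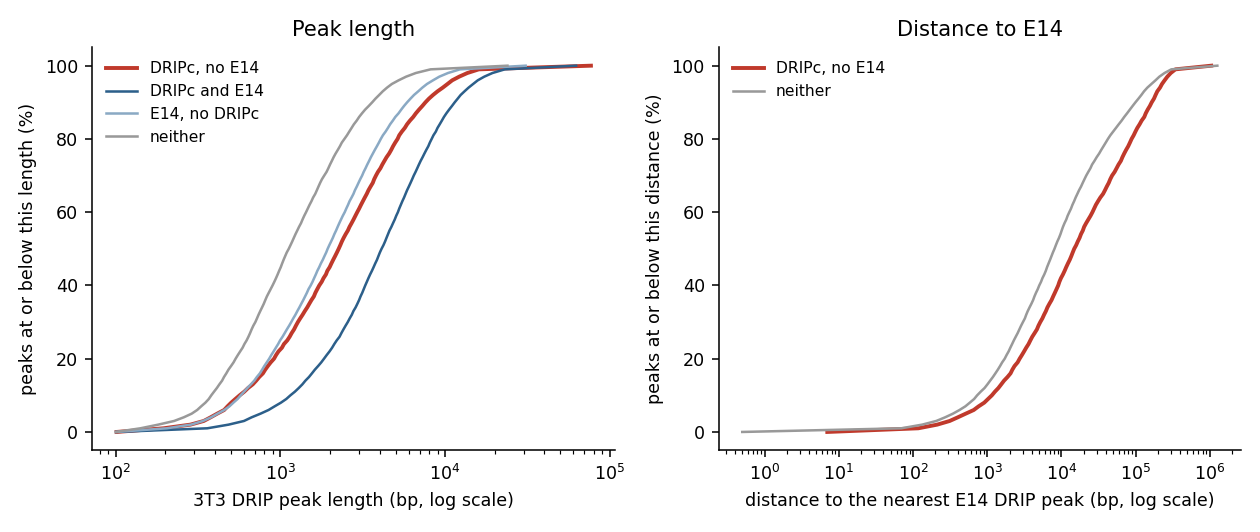
Left, cumulative share of 3T3 DRIP peaks (%) by length in bp on a log axis, for E14-absent peaks (DRIPc, no E14), shared peaks (DRIPc and E14), peaks with E14 and no DRIPc, and peaks with neither; right, cumulative share by distance in bp to the nearest E14 peak, for E14-absent peaks and peaks with neither. The E14-absent curve (median 2258 bp) lies left of the shared curve (4113 bp), and its distances to E14 (median 14.9 kb) lie right of those of peaks with neither (8.07 kb).

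Few peaks lay within 100 bp of either limit of the rule. In wider terms, DRIPc covered less than 10% of the length of 452 E14-absent peaks (9.33%), against 11.5% of shared peaks. An E14 peak within 1 kb was found for 422 (8.72%), against 13.0% of peaks with neither DRIPc nor E14. The smallest DRIPc overlap was 1 bp, at a 4871 bp peak on chromosome 6 from 115554460 to 115559330, and 157 of 4842 had under 100 bp of DRIPc. Just outside, 159 of the 8667 peaks with neither had a DRIPc peak at most 100 bp away, and 2 of these abutted one without sharing a base. The nearest E14 peak to an E14-absent peak was 7 bp away, on chromosome 8 from 19905686 to 19906799, and 42 had one at most 100 bp away. On the other side, 58 of the 11262 shared peaks had under 100 bp of E14 overlap, the least being 2 bp.

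The mouse DRIP lists carry the authors' own class for each peak, without a definition in the sources used here. Noisy_MedPeak made up 88.7% (87.8 to 89.6%) of E14-absent peaks, 4296 of 4842, and 73.1% (72.3 to 73.9%) of shared peaks. Noisy_BroadPeak made up 7.74% (7.01 to 8.53%), or 375 E14-absent peaks, against 22.8% (22.0 to 23.6%) of shared peaks. The class mix was not particular to E14-absent peaks. Noisy_MedPeak and Noisy_BroadPeak made up 88.5% and 7.04% of 3T3 DRIP peaks with E14 and no DRIPc. In peaks with neither they made up 91.3% and 2.46%. The gap to shared peaks was also present among peaks of like length. From 2 to 5 kb the Noisy_BroadPeak share was 10.4% (8.996 to 12.0%) in E14-absent and 25.9% (24.5 to 27.2%) in shared peaks. Under 1 kb it was 3.74% (2.70 to 5.05%) and 14.1% (11.9 to 16.6%). The 2 remaining classes were rare, with 133 E14-absent peaks named Sparse_MedPeak (2.75%) and 38 named Sparse_SharpPeak (0.785%).

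Classes differed in length and strand among the E14-absent peaks themselves. Median length was 2162 bp for Noisy_MedPeak, 3130 bp for Noisy_BroadPeak, 3198 bp for Sparse_MedPeak and 6449 bp for Sparse_SharpPeak. DRIPc peaks on both strands were found at 8.94% of Noisy_MedPeak, 32.5% of Noisy_BroadPeak, 12.0% of Sparse_MedPeak and 57.9% of Sparse_SharpPeak. Among shared peaks the shares were 17.4%, 50.1%, 8.54% and 54.8% in the same order. Sparse_MedPeak thus ranked above Noisy_MedPeak among E14-absent peaks and below it among shared ones. That class held only 133 E14-absent and 199 shared peaks, and no interval was computed, so the change of rank is uncertain. Class was not separated from length in these shares.

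Hybrids at E14-absent peaks were mostly on 1 strand. Of 4842 peaks, 2179 (45.0%) were touched by plus strand DRIPc peaks alone, 2119 (43.8%) by minus strand peaks alone and 544 (11.2%, 10.4 to 12.2%) by both strands. Among shared peaks, 25.6% (24.8 to 26.4%) had both strands. Part of that gap went with length, but it was present in each class of length. Both strands were found at 2.47% (1.63 to 3.57%) of E14-absent and 8.62% (6.86 to 10.7%) of shared peaks under 1 kb. From 1 to 2 kb the shares were 6.14% (4.79 to 7.73%) and 13.2% (11.6 to 15.002%), and from 2 to 5 kb they were 11.2% (9.74 to 12.8%) and 20.2% (18.9 to 21.4%). At 5 kb or more they were 26.3% (23.6 to 29.2%) and 37.8% (36.4 to 39.2%). Median length was 4825 bp at E14-absent peaks with both strands, 2063 bp with the plus strand alone and 2053 bp with the minus strand alone. In 471 of these 544 peaks the strands overlapped by at least 1 bp, and the overlap took 30.2% of their DRIPc length, against 36.3% in shared peaks with both strands.

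**Figure D2:**
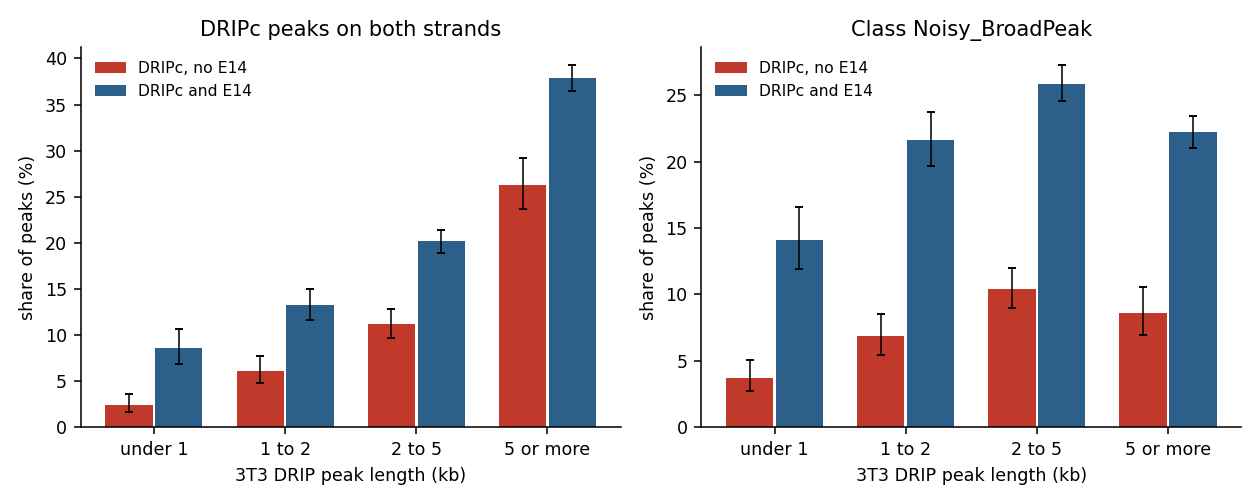
Share of peaks (%) with DRIPc peaks on both strands (left) and of class Noisy_BroadPeak (right), by 3T3 DRIP peak length in kb, for E14-absent peaks (DRIPc, no E14) and shared peaks (DRIPc and E14); bars are shares and lines exact 95% intervals. The E14-absent bars are the lower ones in all 4 length classes of both plots, for example 26.3% against 37.8% with both strands at 5 kb or more.

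The RNA signal covered a large part of most E14-absent peaks. The median peak was covered over 61.5% of its length (quartiles 26.0 and 100%), against 47.5% for shared peaks (21.1 and 80.3%). Under 1 kb both medians were 100%. From 1 to 2 kb they were 72.9% and 63.9%, from 2 to 5 kb 48.3% and 48.4%, and at 5 kb or more 40.3% and 37.5%. A single DRIPc peak touched 3618 E14-absent peaks (74.7%), and 3 or more touched 382 (7.89%). DRIPc covered 1404 in full (29.0%) and less than 10% of the length of 452 (9.33%). The 5896 DRIPc peaks at E14-absent peaks, 2994 plus and 2902 minus, had a median length of 1560 bp, and 42.0% of their length lay inside the E14-absent peaks. Of these DRIPc peaks, 621 (10.5%) reached across at least 2 E14-absent peaks, and the most that any reached across was 8.

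E14-absent peaks lay in the neighbourhood of stem cell peaks less often than 3T3 peaks without RNA support did. The median distance to the nearest E14 peak was 14.9 kb (quartiles 3.82 and 66.4 kb), against 8.07 kb (2.29 and 29.9 kb) for 3T3 DRIP peaks with neither DRIPc nor E14. An E14 peak lay within 10 kb of 42.2% (40.8 to 43.6%) of E14-absent peaks and of 54.8% (53.8 to 55.9%) of peaks with neither. At the other end, 866 E14-absent peaks, 17.9% (16.8 to 18.99%), had no E14 peak within 100 kb, against 9.95% (9.32 to 10.6%) of peaks with neither. That difference was seen under 1 kb, at 16.7% (14.5 to 19.1%) and 9.05% (8.17 to 9.998%), and at 5 kb or more, at 21.0% (18.5 to 23.6%) and 12.6% (9.47 to 16.3%). Peaks that lie between the same E14 peaks are not independent in this distance, which the intervals ignore.

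For some peaks the absence in E14 was local. At 686 of them, 14.2% (13.2 to 15.2%), a DRIPc peak that touched the E14-absent peak also touched an E14 peak elsewhere along its length. This share was 23.4% (20.9 to 26.0%) under 1 kb and 5.06% (3.79 to 6.61%) at 5 kb or more. An E14 peak lay within 1 kb of 422 (8.72%), a lower share than the 13.0% of peaks with neither DRIPc nor E14.

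Many E14-absent peaks had a near neighbour of their own kind. Neighbours at most 10 kb apart were joined into runs, which gave 898 runs of at least 2 peaks holding 2693 of the 4842 peaks, or 55.6% (54.2 to 57.0%), and left 2149 alone. Joined in the same way, 69.0% (68.2 to 69.9%) of the more numerous shared peaks and 44.6% (43.6 to 45.7%) of peaks with neither were in runs of their own. Pairs were the most common, with 501 runs, and 108 runs held 5 or more, with 736 peaks in them. Run length had a median of 12.4 kb, with quartiles at 7.37 and 19.7 kb. In 88 of the 898 runs an E14 peak was called in a gap between E14-absent peaks; the peaks themselves are free of E14 peaks by the rule. Another 3T3 DRIP peak lay inside 157 runs (17.5%). The nearest 3T3 DRIP peak of any kind was itself E14-absent for 2333 peaks (48.2%), shared for 1118 (23.1%), without DRIPc or E14 for 1095 (22.6%) and with E14 alone for 296 (6.11%). Over all 3T3 DRIP peaks these sets made up 13.7%, 32.0%, 24.6% and 29.7% in the same order. The nearest peak was not looked up for the other sets, so like neighbours may not be particular to E14-absent peaks. For 614 peaks (12.7%) no other 3T3 DRIP peak lay within 10 kb.

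**Figure D3:**
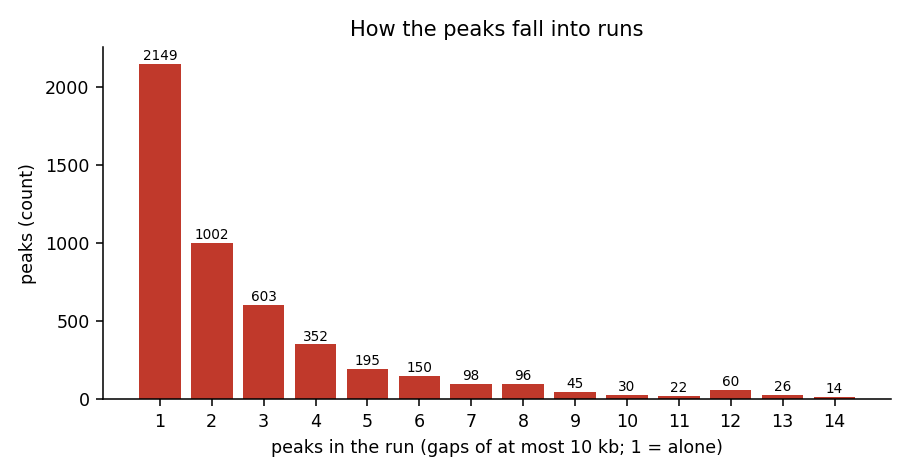
Number of E14-absent peaks by the size of the run they belong to, where a run joins neighbours at most 10 kb apart and size 1 means alone. 2149 peaks stood alone, 1002 were in pairs, and the largest run held 14.

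Some neighbours abutted. On chromosomes 1 to 19, 2731 pairs of neighbouring 3T3 DRIP peaks were separated by only 1 bp, and 567 E14-absent peaks (11.7%, 10.8 to 12.6%) had such a neighbour at 1 bp or less. For 338 the neighbour was E14-absent too, and for 147 it was shared. When peaks 1 bp apart were joined, 53.5% (52.0 to 54.9%) of 4482 E14-absent peaks were in runs.

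Within a run the hybrids kept their strand. Of 1424 neighbouring pairs in which each peak had 1 strand, 1377 had the same one, 96.7% (95.6 to 97.6%). Among neighbouring shared peaks it was 94.2% (93.3 to 94.9998%) of 2957 pairs. A single DRIPc peak bridged 578 of the 1424 pairs, which fixes their strand, but the 846 pairs with no such bridge had the same strand in 94.4% (92.7 to 95.9%) of cases. The share in these unbridged pairs was 92.2% (88.0 to 95.3%) for gaps under 2 kb, 95.3% (92.4 to 97.4%) for gaps from 2 to 5 kb and 95.2% (92.1 to 97.4%) for gaps from 5 to 10 kb. Of the 898 runs, 846 (94.2%) held no mixture of plus-alone and minus-alone peaks. Plus-alone and minus-alone peaks were in runs about equally often, 55.5% (53.4 to 57.6%) and 54.3% (52.1 to 56.4%).

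The run with the most peaks was also the longest, on chromosome 11 from 67322074 to 67511176 (189.1 kb). Its 14 E14-absent peaks filled 90.9% of the span, with 2 other 3T3 DRIP peaks between them, and no E14 peak lay closer than 284.7 kb. On the strand, 10 peaks were touched by the plus strand alone, 4 by both strands and 0 by the minus strand alone, from 32 plus and 4 minus DRIPc peaks. The run opened with the longest E14-absent peak of all, 77.0 kb from 67322074 to 67399025, of class Sparse_MedPeak. Plus strand DRIPc covered 29.5 kb (38.4%) of this peak in 7 pieces. It was followed after 1 bp by a 9.14 kb Noisy_BroadPeak covered over 90.3% with both strands, and then by peaks of 10.5 and 10.6 kb on the plus strand. Toward the other end lay an 11.5 kb peak with both strands, covered over 84.4%, and a 20.6 kb peak with both strands covered over only 10.01%.

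Of the runs that followed in number, 2 held 13 peaks and 5 held 12; the first 2 of the 5 in genome order are described here. Each was led by 1 strand. On chromosome 6 from 87180047 to 87282922 (102.9 kb), 13 peaks of 0.624 to 10.3 kb were all touched by the minus strand alone, from 23 minus and 0 plus DRIPc peaks, and the nearest E14 peak was 124.4 kb away. All 13 were Noisy_MedPeak, and their median DRIPc cover was 68.1%. On chromosome 1 from 92662264 to 92742361 (80.1 kb), 13 peaks held 9 with the minus strand alone and 4 with both strands, and the nearest E14 peak was 137.6 kb away. They filled 82.3% of the span. The run differed from that on chromosome 6 in having 3 plus strand DRIPc peaks among its 15 minus strand ones.

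On chromosome 1 from 171900670 to 171991193 (90.5 kb), 12 peaks of 0.577 to 14.2 kb were all touched by the minus strand alone, although 1 plus strand DRIPc peak lay in a gap beside 13 minus strand ones. All 12 were Noisy_MedPeak, DRIPc covered a median of 89.5% of each, and the nearest E14 peak was 15.2 kb away. The other run of 12, on chromosome 3 from 99056348 to 99160249 (103.9 kb), had 10 peaks with the plus strand alone and 2 with both. Cover there was uneven along the run: the first 9 peaks were covered over 58.4 to 100%, and the last 3 over 10.3%, 3.50% and 18.3%. The nearest E14 peak was 32.5 kb away.

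The next 2 runs are among the 5 longest. On chromosome 4 from 114089724 to 114216054 (126.3 kb), 12 peaks were all touched by the plus strand alone, from 20 plus and 0 minus DRIPc peaks. They were 0.147 to 15.8 kb long, DRIPc covered a median of 86.1% of each, and the nearest E14 peak was 126.0 kb away. The other lay on chromosome 4 from 107207104 to 107316058 (109.0 kb). Its 7 peaks all had the plus strand alone, but 5 other 3T3 DRIP peaks and 1 E14 peak lay between them, and the nearest E14 peak was 1.07 kb from an E14-absent peak. DRIPc cover was 7.13%, 6.90% and 14.6% in the first 3 peaks, and 63.7%, 100%, 71.8% and 95.9% in the other 4. Of the 7 runs described, only this one held an E14 peak.

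**Figure D4:**
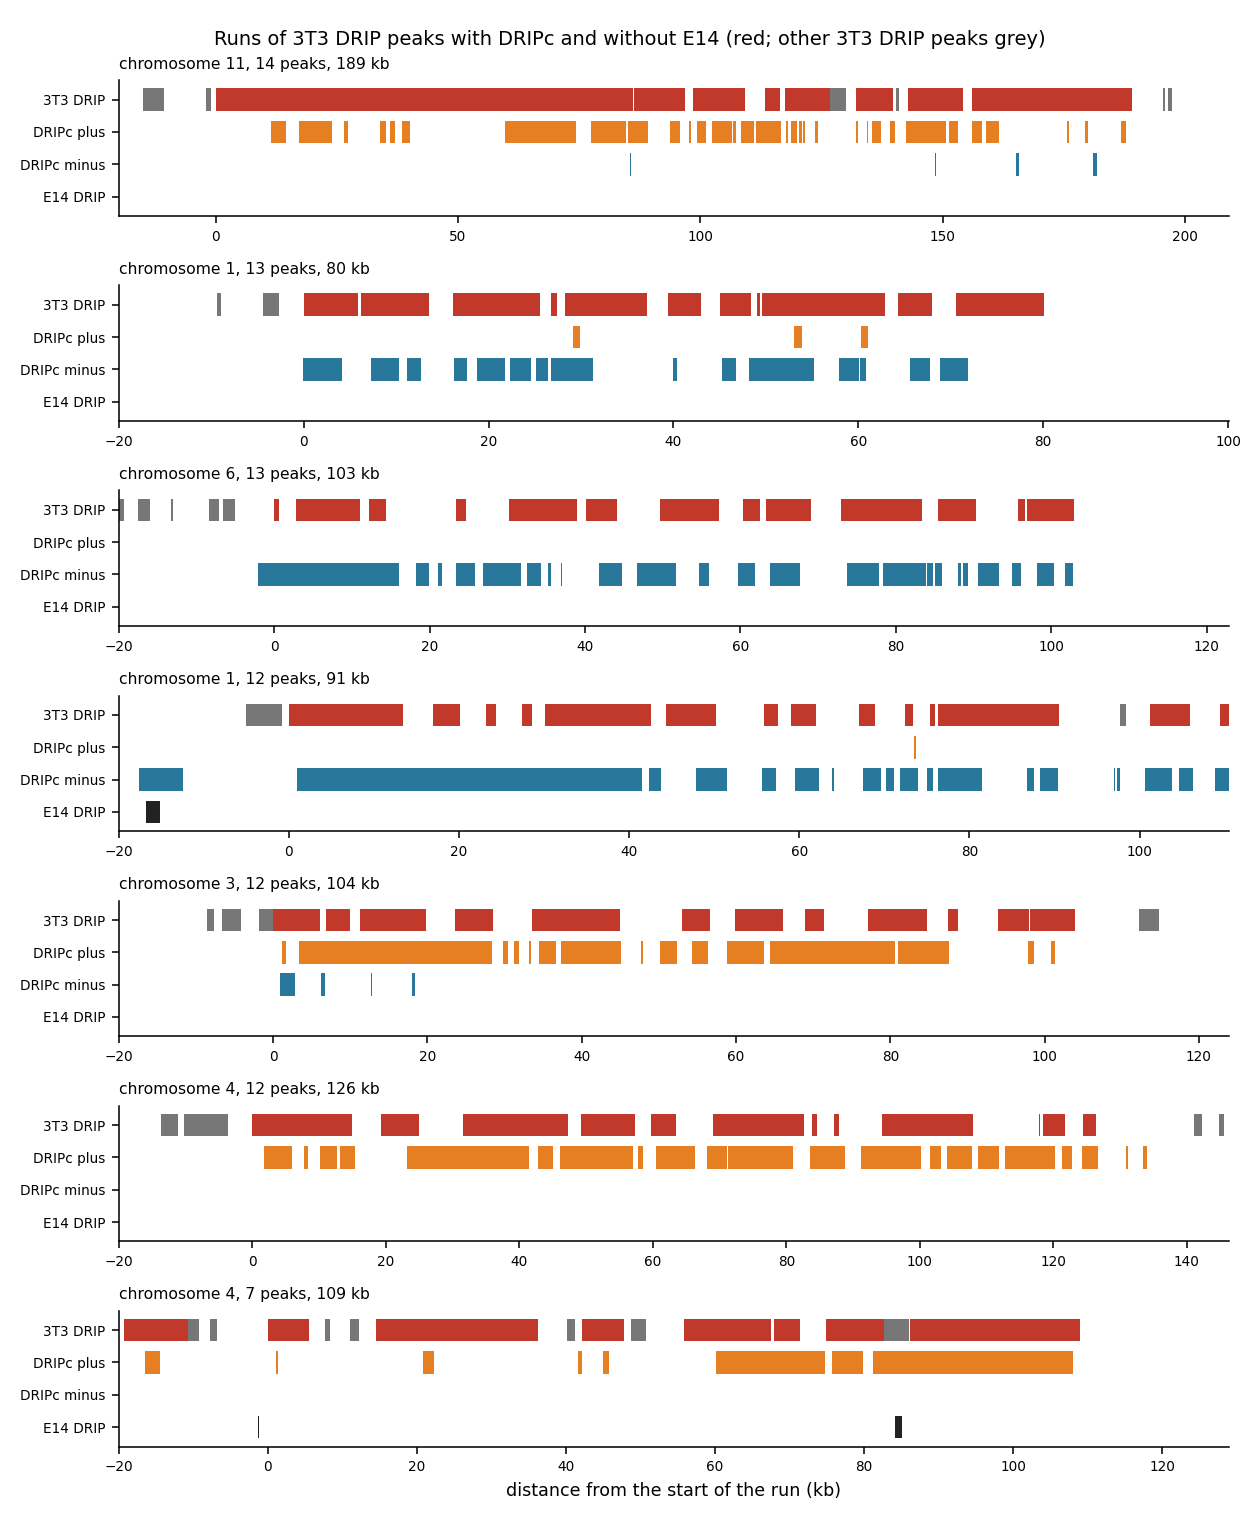
Maps of the 7 named runs, with distance in kb from the start of the run on the x axis and 20 kb added on each side; rows show 3T3 DRIP peaks (E14-absent in red, others grey), plus and minus strand 3T3 DRIPc peaks, and E14 DRIP peaks. Most DRIPc peaks lie on 1 strand in each run, with 15 plus and 4 minus on chromosome 3 and 3 plus and 15 minus in the chromosome 1 run of 13 peaks. An E14 peak appears inside only the run of 7 peaks on chromosome 4.

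The 10 longest E14-absent peaks varied widely in their RNA cover, from 2.47% to 70.5%. After the 77.0 kb peak on chromosome 11 came a 36.5 kb peak on chromosome 5 from 135177435 to 135213939, in which 3 DRIPc peaks covered only 0.9 kb (2.47%), 0.68 kb of it plus and 0.22 kb minus. RNA cover was also sparse in 3 others. The peak on chromosome 10 from 58505016 to 58539417 (34.4 kb) had 1.32 kb of plus strand DRIPc (3.84%). That on chromosome 1 from 193057622 to 193083906 (26.3 kb) had 1.09 kb, also plus (4.15%). That on chromosome 2 from 32188772 to 32214515 (25.7 kb) had 2.74 kb (10.6%), mostly minus. These peaks met the rule, but DRIPc marked a small part of each.

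Others had broad cover. The peak on chromosome 18 from 61802702 to 61827586 (24.9 kb), the longest of class Noisy_BroadPeak, was covered over 70.5% by 10 DRIPc peaks, 10.3 kb on the plus and 16.3 kb on the minus strand. A like peak on chromosome 10 from 76165662 to 76190122 (24.5 kb, Noisy_BroadPeak) was covered over 64.9%, 11.0 kb on plus and 13.7 kb on minus. In both, part of the covered length carried both strands. Single-strand cover was found in the longest Noisy_MedPeak, on chromosome 2 from 27749050 to 27775881 (26.8 kb), with 7.06 kb of plus strand DRIPc (26.3%). It was also found in the longest Sparse_SharpPeak, on chromosome 6 from 36725880 to 36751831 (26.0 kb), with 8.44 kb in 1 minus strand DRIPc peak (32.5%). On chromosome 8, the peak from 23865263 to 23890947 (25.7 kb) had 9.38 kb of plus strand DRIPc (36.5%). The nearest E14 peak to these 10 ranged from 10.5 kb away, for the chromosome 2 peak with sparse RNA, to 396.9 kb, for the longest peak.

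The 5 E14-absent peaks farthest from an E14 peak ranged from 207 bp to 11.6 kb in length. The most distant, 207 bp on chromosome 8 from 57997986 to 57998192, stood alone with no E14 peak within 1047 kb. The next, 922 bp on chromosome 19 from 26809364 to 26810285, was also alone, at 646.8 kb. The next 3 were neighbours in a run of 10 on chromosome 9, between 115993397 and 116011324, all touched by the minus strand alone and 570.7 to 577.0 kb from the nearest E14 peak. The longest of these 3 was 11.6 kb and covered over 74.5%, and the other 2 were covered in full.

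Some stretches between stem cell peaks held many E14-absent peaks at once. The spaces between neighbouring E14 peaks that held any numbered 2454, with a median of 1 E14-absent peak each. In 183 of them there were 5 or more, and these took 1558 peaks, 32.2% of all. The most was 22, reached on chromosome 10 from 68911509 to 69557736 (646.2 kb, 19 plus alone, 1 minus alone) and on chromosome 5 from 107413221 to 107888114 (474.9 kb, 1 plus alone, 20 minus alone). Spaces with 21 lay on chromosome 4 from 113963740 to 114603324 (639.6 kb, all plus alone), on chromosome 3 from 5055937 to 5534525 (478.6 kb, 18 plus alone) and on chromosome 4 from 58030922 to 58237483 (206.6 kb, all minus alone). Each of the 5 was dominated by 1 strand. These spaces were picked by their counts after the data were seen. By the rule, any DRIPc-touched 3T3 DRIP peak lying within such a space is E14-absent, so a longer space can hold more. The counts were not compared with the lengths of the spaces or with the other 3T3 DRIP peaks in them.

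Chromosomes differed in how many of their 3T3 DRIP peaks were E14-absent. Chromosome 6 had the highest share, 19.4% (17.7 to 21.1%, 419 of 2163), followed by chromosome 1 with 18.4% (16.9 to 19.997%, 444 of 2414). Chromosome 2 had the lowest, 8.85% (7.75 to 10.1%, 215 of 2429), and chromosome 11 was next with 10.5% (9.44 to 11.7%, 298 of 2826). The E14 list held 1.27 peaks for each 3T3 peak on chromosome 6, 1.39 on chromosome 1, 1.80 on chromosome 2 and 1.32 on chromosome 11, over a range of 1.18 to 2.10 across chromosomes. How far the chromosome shares reflect the number of E14 peaks, copy number in either line or mapping was not tested. Of 3T3 DRIP peaks touched by DRIPc, 38.8% (35.9 to 41.8%) on chromosome 6 and 22.6% (19.9 to 25.3%) on chromosome 2 had no E14 peak. Median length of E14-absent peaks ran from 1626 bp on chromosome 13 to 2554 bp on chromosome 10.

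**Figure D5:**
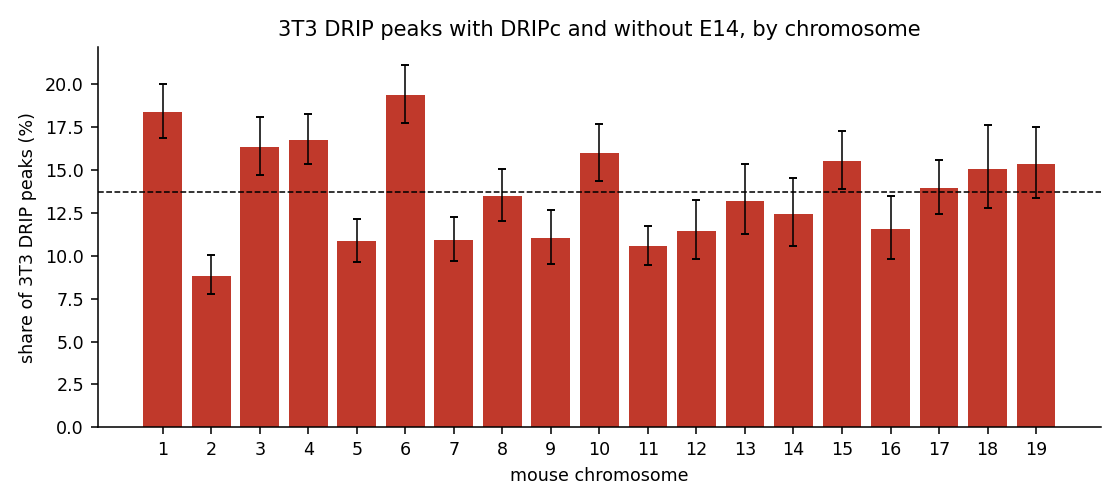
Share of 3T3 DRIP peaks (%) that were E14-absent on each of chromosomes 1 to 19; bars are shares, lines exact 95% intervals and the dashed line the share over all (13.7%). Chromosomes 6 and 1 stand highest at 19.4% and 18.4%, and chromosome 2 lowest at 8.85%.

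Strands were balanced over all E14-absent peaks but not on each chromosome. On chromosome 14, 85 peaks had the plus strand alone and 41 the minus strand alone, and on chromosome 10 there were 168 and 121. On chromosome 1 the minus strand led, with 161 plus alone and 231 minus alone. These chromosomes are examples, and the strand split of shared peaks or of all DRIPc peaks on them was not compared. Whether the imbalance is particular to E14-absent peaks was therefore not tested. Since neighbours in a run share their strand, a few long runs can move such counts, and the peaks are not independent.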

How the data were processed

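RNA:DNA hybrids were mapped by DRIP-seq in 3T3 and E14 cells and by DRIPc-seq in 3T3 cells, 1 sample and 1 list each, grouped by cell line and assay per the labels. Per the submitters' processing notes, mm9 is among the builds, and the tools were Bismark 0.7.7, BWA 0.6.1 and TopHat2 2.0.5, with no role given. No peak caller, threshold or control is named in these sources. The deposited lists give where each peak starts and ends; the DRIP lists add a class name and a score of 0 in every row, which was not used, and the DRIPc list is split by strand, per the file headers. All DRIPc positions are multiples of 10 bp. The other 10 samples of the series were not used here.

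Peaks off chromosomes 1 to 19 were left out (675 in 3T3 DRIP, 901 in 3T3 DRIPc, 1613 in E14). Overlap required 1 bp. Counting, lengths, distances and runs (gaps of at most 10 kb) were computed with Python 3.11.15, numpy 2.4.6, pandas 2.3.3, scipy 1.17.1 and matplotlib 3.10.9. bedtools 2.31.1 gave the same 4842 peaks. On 3000 simulated peaks all planted overlaps, strands and distances were recovered. There is 1 list per group, so no test was run. Named regions were the 10 longest peaks, the longest of each class, the 5 farthest from E14, the 5 runs with most peaks, the 5 longest runs, and peaks at the edge of the rule, with ties by chromosome and start. The peaks, measures and settings were chosen with earlier results of these data known.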

Additional observations from a re-analysis of the deposited data

How the results depend on the processing

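The number of E14-absent peaks was 4842 and fell to 2796 when DRIPc had to cover at least 50% of the peak, and also to 2796 with the longest 50% of each list; it stayed within 1.5 times under the other settings tried. Median length (2258 bp) was 1697 bp with 50% cover, 2430 bp with no E14 peak within 5 kb, 4409 bp with the longest 50% of each list, 2338 bp with peaks within 1 kb merged and 2452 bp without DRIPc peaks that touch E14. The share with 1 strand (88.8%) was 89.8% with the longest 50%, 90.02% with peaks merged and 90.2% when 90% of DRIPc base pairs sufficed. The share in runs (55.6%) was 50.2% with 50% cover, 61.0% with no E14 peak within 5 kb, 44.6% with the longest 50%, 47.5% with peaks merged, 45.5% and 75.4% with gaps of 5 and 50 kb, and 53.5% with peaks 1 bp apart joined. Neighbours had the same strand in 99.3% of pairs with 50% cover and 94.6% with gaps of 50 kb, against 96.7%. The median distance to E14 (14.9 kb, or 14877 bp) was 35493 bp with no E14 peak within 5 kb, 29389 bp with the longest 50%, 17728 bp with peaks merged and 20098 bp without DRIPc peaks that touch E14. Noisy_MedPeak made up 87.8% with no E14 peak within 5 kb and 83.4% with the longest 50%, against 88.7%. The E14-absent share of the 3T3 DRIP peaks on chromosome 6 (19.4%) was 11.8% with 50% cover and 13.6% with no E14 peak within 5 kb. It was 22.4% with the longest 50% and 17.2% without DRIPc peaks that touch E14. On chromosome 2 (8.85%) it was 4.73%, 6.42% and 12.6% under the first 3 of these, each below chromosome 6. The share over all chromosomes was not computed under these settings, so the 2 chromosomes cannot be set against it. Joining peaks 1 bp apart and leaving out DRIPc peaks that touch E14 were added after the data were seen. The setting with no E14 peak within 5 kb drops every peak nearer than that, so its larger distance was fixed by the setting. Keeping the longest 50% of each list selects long peaks, so its larger median length was fixed as well. It also takes peaks out of the E14 list, which moves distances to E14. Otherwise the cause was not tested where a share moved. Depth is unknown, so peaks missed in E14 for want of reads cannot be told apart from absent ones. No paired analysis was possible because each group has 1 list.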

Other observations

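The strand of the hybrids gives E14-absent peaks a direction, which the rule did not use. Among those with 1 strand and an E14 peak within 10 kb, the nearest E14 peak lay upstream in 982 of 1843 cases, 53.3% (51.0 to 55.6%). It was 52.7% (49.4 to 56.0%) for the plus and 53.9% (50.6 to 57.1%) for the minus strand, 53.6% (49.7 to 57.4%) for E14 peaks within 2 kb and 51.0% (49.2 to 52.8%) for E14 peaks within 50 kb. The nearest shared 3T3 peak within 10 kb lay upstream in 51.8% (49.2 to 54.5%) of 1416 cases. For shared peaks, the nearest E14 peak beyond the peak itself lay upstream in 50.4% (49.2 to 51.5%) of 7081 cases. Neighbouring peaks mostly share a strand and can share a nearest E14 peak, so the cases are not independent. The intervals on direction can therefore be too narrow, and a lean to either side was not tested. In the 260 runs of at least 3 peaks on 1 strand, the first peak in the direction of the RNA was longer than the last in 145 (55.8%, 49.5 to 61.9%), with medians of 2347 bp for the first, 1839 bp for the inner and 1909 bp for the last. Where the 2 strands of a peak did not overlap and lay in a single order, the minus strand came before the plus, as in divergent transcription, in 42 of 64 E14-absent peaks (65.6%, 52.7 to 77.1%) and 148 of 298 shared peaks (49.7%, 43.8 to 55.5%). Neither comparison with shared peaks was adjusted for length.

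Along the chromosomes, the share of DRIPc-touched 3T3 DRIP peaks without E14 varied widely among 225 bins of 10 Mb with at least 20 such peaks, from 3.03% to 77.5%, with a median of 30.2% and quartiles at 21.1 and 40.6%. In 7 bins it was above 60%. Chromosome 4 from 80 to 90 Mb had the most E14-absent peaks of these, 97 of 146 (66.4%, 58.2 to 74.0%), and chromosome 16 from 40 to 50 Mb had the highest share, 31 of 40 (77.5%, 61.5 to 89.2%). At the other end, chromosome 11 from 120 to 130 Mb had 1 of 33 (3.03%, 0.0767 to 15.8%), chromosome 5 from 120 to 130 Mb had 4 of 92 (4.35%, 1.20 to 10.8%), chromosome 7 up to 10 Mb had 2 of 44 (4.55%, 0.555 to 15.5%) and chromosome 2 from 150 to 160 Mb had 5 of 98 (5.10%, 1.68 to 11.5%). These bins were chosen after their values were seen. The E14 list held 147 peaks beside 224 3T3 DRIP peaks in the chromosome 4 bin, and 93 beside 90 in the chromosome 16 bin. In the low bins it held 138 beside 84, 389 beside 279, 143 beside 87 and 523 beside 284, in the order given. How far the bin shares reflect the number of E14 peaks was not tested.

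In the strand column of the 3T3 DRIP list, 17 of 4842 E14-absent peaks and 23 of 11262 shared peaks carried a minus sign, although the assay gives no strand.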
